A study of Homo sapiens with 24 samples.

Results

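The genes described here are 9 genes of the smooth muscle contractile apparatus, MYL9, ACTA2, TAGLN, TPM1, TPM2, CNN1, MYLK, CALD1 and PDLIM5, out of 22109 named genes on the array. They were chosen by name, around MYL9, with earlier results of these data known. MYL9 itself was already known to be higher in Aldefluor+ than in Aldefluor- SUM159 cells with DMSO in these data. Each gene had exactly 1 probe set that named only its symbol, and that probe set was used. Values of MYL9 that rest on the SUM159 DMSO arrays are therefore given as a description with no test.

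Gene expression was measured on 24 arrays of 2 human breast cancer cell lines. SUM159 lacks hormone receptors and HER2 and looks mesenchymal, while T47D is luminal and carries the oestrogen receptor. Cultures received 5 µM ID8, a small molecule known as an inhibitor of DYRK kinases, or its vehicle DMSO, for 72 hours, and were then sorted into Aldefluor+ and Aldefluor- cells. Aldefluor is a substrate of aldehyde dehydrogenases whose product is fluorescent and stays in the cell. The 8 groups were thus ID8 and DMSO in Aldefluor+ and Aldefluor- cells of each line, with 3 arrays per group. Each group held 1 array from each of 3 separate experiments, numbered 2, 3 and 4 for SUM159 and 5, 6 and 7 for T47D. Both fractions of a treatment came from the same pooled flasks, and 1 dose and 1 time were used.

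Values are log2 signals that the authors had normalized and adjusted for batch. The adjustment had also nearly removed differences between the lines (SD over genes 0.119), so levels of the contractile genes are compared within a line only. About 48.7% of the genes had a mean under 2, a low signal at which a fold depends on the background of the probe set. The SUM159 DMSO Aldefluor+ array of experiment 4 stood apart, with an interquartile range of 2.9 against 2.99 to 3.13 on the other arrays. Of the results that rest on it, the ID8 and fraction differences of MYL9 and the counts of called members are also given without it. Arrays have no count depth, and their number limits the precision. As a check of the labels alone, markers of each line were still higher in it. The 7 genes typical of SUM159 averaged 4.69 to 5.17 per SUM159 array and 4.38 to 4.63 per T47D array, and 7 typical of T47D averaged 4.67 to 4.96 per T47D array and 4.15 to 4.35 per SUM159 array. In SUM159, ALDH1A1, a main source of Aldefluor activity, was higher in Aldefluor+ cells both with ID8 (log2 difference 3.02) and with DMSO (2.80). In T47D its difference was -0.03 with ID8 and 0.21 with DMSO. The 2 genes listed for this check averaged 2.81 to 3.11 per T47D Aldefluor+ array with ID8, against 2.49 to 2.69 per Aldefluor- array. With DMSO these T47D averages were 2.57 to 2.82 and 2.39 to 2.78.

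Contractile cells generate force when myosin II filaments pull on actin. The regulatory light chain encoded by MYL9 switches the motor on when a kinase such as myosin light chain kinase (MYLK) phosphorylates it. ACTA2 is the actin of the contractile filament, tropomyosins (TPM1, TPM2), caldesmon (CALD1), calponin (CNN1) and transgelin (TAGLN) bind along it, and PDLIM5 is a PDZ-LIM scaffold at actin anchoring sites. In breast, many of these proteins mark the myoepithelial layer, and cultured cells use them in stress fibres. Serum response factor (SRF) with its coactivators of the myocardin family drives such genes through the CArG box, a pair of C, a core of 6 A or T, and a pair of G.

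Because several of these genes moved together with ID8, the sequence just before their starts is shown for the 4 genes that passed the test in SUM159 Aldefluor- cells and have an entry in the RefSeq promoter table (GRCh38.p14). Each run is the 250 bases before the start, 5′ to 3′ on the gene's strand. Capitals mark a CArG box or a variant with 1 G or C in the core. The pattern reads the same on both strands.
ACTA2, chr10:88952774-88953023, minus strand: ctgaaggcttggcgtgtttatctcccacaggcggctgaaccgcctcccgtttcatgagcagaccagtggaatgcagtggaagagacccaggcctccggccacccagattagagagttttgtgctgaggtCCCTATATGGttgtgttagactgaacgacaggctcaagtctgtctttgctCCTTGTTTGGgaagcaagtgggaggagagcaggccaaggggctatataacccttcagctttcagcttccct
MYLK, chr3:123620549-123620798, minus strand: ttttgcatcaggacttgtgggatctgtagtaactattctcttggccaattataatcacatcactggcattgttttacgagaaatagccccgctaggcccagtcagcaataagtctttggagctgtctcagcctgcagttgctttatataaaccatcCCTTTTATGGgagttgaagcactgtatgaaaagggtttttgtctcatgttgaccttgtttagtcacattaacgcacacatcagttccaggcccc
TPM1, chr15:63048239-63048488, plus strand: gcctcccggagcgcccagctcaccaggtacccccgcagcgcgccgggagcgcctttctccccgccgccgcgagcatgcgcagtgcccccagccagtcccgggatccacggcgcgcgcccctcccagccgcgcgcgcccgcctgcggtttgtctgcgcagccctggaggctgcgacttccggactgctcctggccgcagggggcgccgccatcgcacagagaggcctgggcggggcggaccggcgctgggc
PDLIM5, chr4:94451692-94451941, plus strand: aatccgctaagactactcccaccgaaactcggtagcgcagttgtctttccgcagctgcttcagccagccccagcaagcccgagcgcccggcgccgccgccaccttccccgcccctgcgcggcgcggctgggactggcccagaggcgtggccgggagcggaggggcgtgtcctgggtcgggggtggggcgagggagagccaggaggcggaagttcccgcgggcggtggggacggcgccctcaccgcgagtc

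The ACTA2 window held 2 variants, which began 121 and 71 bases before the start, and no exact box. The MYLK window held 1 exact box, which began 94 bases before the start. This MYLK start lies inside the gene, where the short protein telokin is transcribed, and is not the start of the full kinase. The TPM1 and PDLIM5 windows held neither form. The TPM1 window also lies inside the gene, which begins at chr15:63042747, and the bases before that position had no entry and were not searched. ACTA2 has a further entry upstream of this one, without a match. Over all 7 genes with an entry (12 windows), 1 window held an exact box and 3 held an exact box or a variant. Of all 35116 windows of this length in the table, 1.16% held an exact box and 7.04% held either form. MYL9 and TAGLN had no entry. A match is a description of the letters and not evidence of binding.

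MYL9 had the widest range of the 9 genes. In SUM159 Aldefluor- cells it read 7.44, 7.58 and 7.43 with ID8 in experiments 2, 3 and 4, against 5.00, 4.57 and 4.47 with DMSO. Every ID8 array lay above every DMSO array, and the mean difference was 2.80 on the log2 scale, or 6.98-fold. In SUM159 Aldefluor+ cells it read 7.36, 7.43 and 7.55 with ID8, against 5.54, 5.97 and 5.96 with DMSO. These arrays did not overlap either, with a mean difference of 1.62 (3.08-fold), or 1.72 without the array of experiment 4 that stood apart. Both fractions reached nearly the same level with ID8, at 7.45 ± 0.10 in Aldefluor+ and 7.48 ± 0.08 in Aldefluor- cells, whereas with DMSO they stood at 5.82 ± 0.24 and 4.68 ± 0.28 (SD, n = 3 each). In sorted bulk samples, fewer cells with a transcript and less of it per cell cannot be told apart.

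In T47D, whose arrays were not those on which MYL9 was picked, MYL9 was again higher with ID8. The T47D tests are still not independent of that choice, because the model takes a shared spread per gene from the arrays of both lines. Aldefluor+ cells had 7.56, 7.36 and 7.12 with ID8 in experiments 5, 6 and 7, against 6.09, 6.50 and 6.44 with DMSO. The arrays did not overlap, and MYL9 rose 2.00-fold (log2 difference 1.00 ± 0.17 SE, limma adjusted p = 0.0216). Aldefluor- cells had 6.89, 6.81 and 6.82 with ID8, against 5.91, 5.79 and 6.11 with DMSO. Here too each ID8 array was above each DMSO array, and the difference was 0.90 ± 0.17 (SE), but the adjusted p of limma was 0.112. This last p was 0.0279 with the trended, robust variance. It was 0.0105 in the fit without the experiment as a block, which takes more residual degrees of freedom than the values hold, because the authors had already removed the experiment means. The difference of the T47D responses, Aldefluor+ minus Aldefluor-, was 0.10 with a 95% interval of -0.42 to 0.62.

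**Figure D1:**
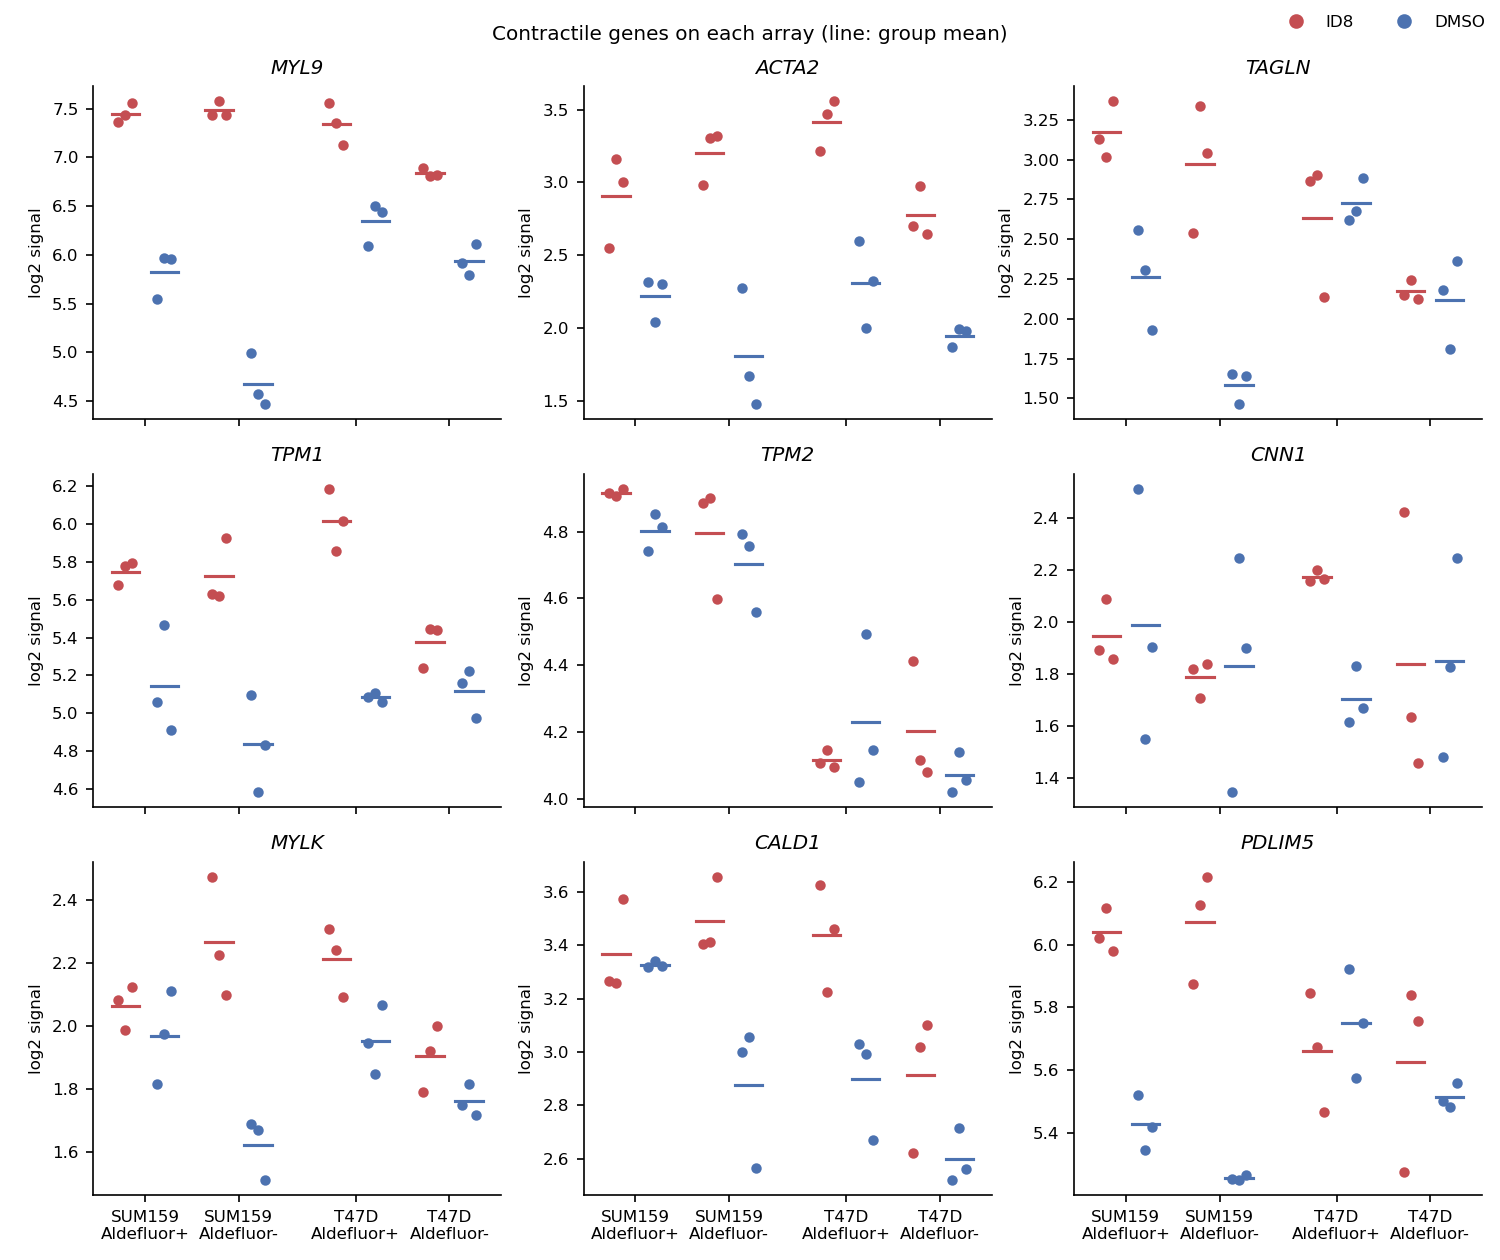
Log2 signal of the 9 contractile genes (vertical axis, its range differs by panel) on each of the 24 arrays, by line and fraction, with ID8 left of DMSO; points are arrays in order of experiment number and lines are group means of 3 arrays. MYL9 reads 7.36 to 7.58 in SUM159 with ID8 against 4.47 to 5.97 with DMSO, while CNN1 and TPM2 show no such gap.

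Beside MYL9, 5 of the other 8 genes rose with ID8 in SUM159 Aldefluor- cells, by limma with Benjamini-Hochberg adjustment over all 22109 genes at an adjusted p under 0.05. These were ACTA2, TAGLN, TPM1, MYLK and PDLIM5, and none of the 8 was lower past the threshold. Over all genes, 0.19% were called higher in this comparison. The list was drawn up around MYL9 with earlier results of these data known, so these shares are no test of the list. Of these 8, 6 were higher on every ID8 array than on any DMSO array, as were 8.93% of all genes. The median difference of the 8 genes was 0.73, against -0.01 over all genes.

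Genes of the actin filament were among them. ACTA2, smooth muscle actin, read 2.98, 3.31 and 3.32 with ID8 in SUM159 Aldefluor- cells, against 2.27, 1.67 and 1.48 with DMSO. The groups did not overlap, the DMSO arrays of experiments 3 and 4 being the low ones, and ACTA2 rose 2.63-fold (log2 difference 1.40 ± 0.22 SE, adjusted p = 0.00822). TAGLN, an actin-binding protein of smooth muscle, read 2.54, 3.34 and 3.04 with ID8, against 1.66, 1.46 and 1.64 with DMSO. Its arrays were likewise separate, and it rose 2.61-fold (1.39 ± 0.24 SE, adjusted p = 0.0184). Both genes were below 2 on average in the DMSO cells, so their folds depend on background.

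TPM1, a tropomyosin that lies along the actin filament, had 5.63, 5.62 and 5.93 with ID8 in SUM159 Aldefluor- cells, against 5.10, 4.58 and 4.83 with DMSO. The groups did not overlap, and TPM1 rose 1.85-fold (0.89 ± 0.16 SE, adjusted p = 0.0293). TPM2, which encodes another tropomyosin, had 4.89, 4.90 and 4.60 with ID8, against 4.79, 4.76 and 4.56 with DMSO. These arrays overlapped, with a difference of 0.09 (95% interval -0.17 to 0.36). CALD1, caldesmon, had 3.41, 3.41 and 3.66 with ID8, against 3.00, 3.06 and 2.56 with DMSO, a gap between the groups whose difference of 0.62 did not pass (adjusted p = 0.248).

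The kinase gene MYLK was near background, with 2.47, 2.23 and 2.10 with ID8, against 1.69, 1.67 and 1.51 with DMSO. Every ID8 array was the higher, and MYLK rose 1.56-fold in SUM159 Aldefluor- cells (0.64 ± 0.13 SE, adjusted p = 0.0428). That call was lost with the trended, robust variance (adjusted p = 0.137), with all probe sets tested (0.0952) and on the arrays of SUM159 alone (0.186). PDLIM5, the scaffold, read 5.87, 6.13 and 6.22 with ID8, against 5.25, 5.25 and 5.27 with DMSO. Its DMSO arrays were nearly identical, and PDLIM5 rose 1.76-fold (0.81 ± 0.15 SE, adjusted p = 0.0346). CNN1, calponin, differed by -0.04 (95% interval -0.65 to 0.56), with arrays that overlapped.

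These calls rest on the spread shared by both lines, and fitted on the SUM159 arrays alone 0 of the 8 genes passed. Leaving out 1 experiment also ended most of them. Without experiment 2, ACTA2 (adjusted p = 0.00402) and TAGLN (0.047) still passed, and TPM1 (0.0879), MYLK (0.322) and PDLIM5 (0.185) did not. Without experiment 3 none of the 5 passed, with ACTA2 at 0.222, TAGLN at 0.36, TPM1 at 0.209, MYLK at 0.317 and PDLIM5 at 0.398. Without experiment 4 the adjusted p was 0.253 for ACTA2, 0.205 for TAGLN, 0.316 for TPM1, 0.235 for MYLK and 0.382 for PDLIM5. Over these fits the ACTA2 difference ran from 1.17 to 1.74 and that of PDLIM5 from 0.75 to 0.91.

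In SUM159 Aldefluor+ cells the same direction was seen at smaller size. Beside MYL9, the differences were 0.91 for TAGLN (adjusted p = 0.153), 0.69 for ACTA2 (0.244), 0.61 for PDLIM5 (0.143) and 0.60 for TPM1 (0.161), and none of the 8 passed in limma, where 0.109% of all genes were called higher. These 4 genes had an unadjusted p under 0.05, as had 2291 of all genes. The fit without the experiment block, with its overstated degrees of freedom, gave an adjusted p of 0.0303 for TAGLN, 0.0319 for TPM1 and 0.0228 for PDLIM5.

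TAGLN read 3.13, 3.02 and 3.37 with ID8 in these Aldefluor+ cells, against 2.56, 2.30 and 1.93 with DMSO. ACTA2 read 2.55, 3.16 and 3.00 with ID8, against 2.31, 2.04 and 2.31 with DMSO. Neither gene overlapped between the groups. PDLIM5 had 6.02, 6.12 and 5.98 with ID8, against 5.52, 5.35 and 5.42 with DMSO. TPM1 had 5.68, 5.78 and 5.79 with ID8, against 5.06, 5.46 and 4.91 with DMSO, also apart. Beside MYL9, 5 of the 8 genes were higher on every ID8 array than on any DMSO array, as were 9.33% of all genes. TPM2 (0.11), MYLK (0.10), CALD1 (0.04) and CNN1 (-0.04) differed little.

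**Figure D2:**
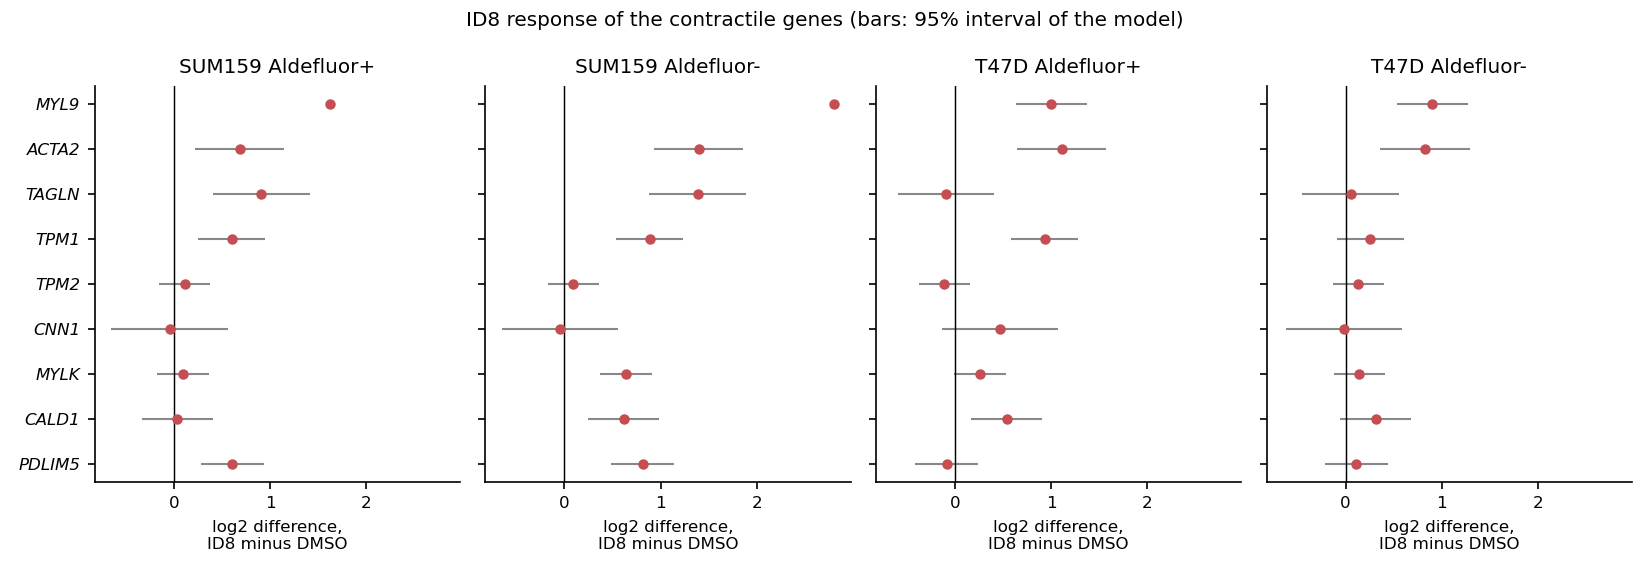
Log2 difference of ID8 minus DMSO (horizontal axis) for each of the 9 genes in the 4 sorted populations, with 95% intervals of the model over 24 arrays (none for MYL9 in SUM159, a description). MYL9 stands at 2.80 in SUM159 Aldefluor- cells and at 0.90 to 1.62 in the others, and the TAGLN and PDLIM5 points lie near 0 in T47D.

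In T47D Aldefluor+ cells 3 of the 9 genes rose with ID8 in limma, namely MYL9, ACTA2 and TPM1, where 0.289% of all genes were called higher. ACTA2 read 3.21, 3.47 and 3.56 with ID8, against 2.60, 2.00 and 2.33 with DMSO, and rose 2.16-fold (1.11 ± 0.22 SE, adjusted p = 0.0387). TPM1 read 6.19, 5.86 and 6.01 with ID8, against 5.09, 5.11 and 5.06 with DMSO, and rose 1.91-fold (0.93 ± 0.16 SE, adjusted p = 0.0216). Neither gene's groups overlapped, and the 3 DMSO arrays of TPM1 were close to each other. ACTA2 averaged 2.31 with DMSO, near the low-signal limit of 2, so its fold may depend on background.

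The other 6 genes did not pass in T47D Aldefluor+ cells. TAGLN had 2.86, 2.90 and 2.13 with ID8, against 2.62, 2.68 and 2.88 with DMSO. Experiment 7 alone had the lower value with ID8, and the mean difference was -0.09 (95% interval -0.60 to 0.41). PDLIM5 had 5.85, 5.67 and 5.47 with ID8, against 5.92, 5.57 and 5.75 with DMSO, which overlapped (-0.09, interval -0.41 to 0.24). CALD1 had 3.63, 3.23 and 3.46 with ID8, against 3.03, 2.99 and 2.67 with DMSO, apart by 0.54 (adjusted p = 0.236). CNN1 differed by 0.47 (adjusted p = 0.602), MYLK by 0.26 (0.474) and TPM2 by -0.11 (0.821). Of the 9 genes, 6 were higher on all ID8 arrays than on any DMSO array, as were 10.5% of all genes. Their median difference was 0.47, against -0.01 over all genes.

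No call in T47D Aldefluor+ cells held when any 1 experiment was left out. The adjusted p of MYL9 was 0.301 without experiment 5, 0.156 without experiment 6 and 0.139 without experiment 7, with differences from 0.77 to 1.16. That of ACTA2 was 0.187, 0.365 and 0.28 in the same order, and that of TPM1 was 0.248, 0.155 and 0.218.

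In T47D Aldefluor- cells none of the 9 genes passed in limma, where 0.0136% of all genes were called higher. MYL9 and ACTA2 had an unadjusted p under 0.05, as had 1459 of all genes. ACTA2 read 2.70, 2.97 and 2.65 with ID8, against 1.87, 1.99 and 1.98 with DMSO. These arrays did not overlap, with a difference of 0.83 (adjusted p = 0.442). ACTA2 averaged 1.95 with DMSO in these cells, a low signal, so the size of its difference depends on background. CALD1 differed by 0.31, TPM1 by 0.26, MYLK by 0.14, TPM2 by 0.13, PDLIM5 by 0.11, TAGLN by 0.05 and CNN1 by -0.01. The median was 0.14, and 3 of the 9 genes were higher on all ID8 arrays, as were 8.35% of all genes.

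With DMSO, and MYL9 in SUM159 aside, no contractile gene passed between Aldefluor+ and Aldefluor- cells of either line. In SUM159, MYL9 was 2.21-fold higher in Aldefluor+ cells (log2 difference 1.15, a description), and 1.05 without the array of experiment 4. None of the other 8 genes passed in limma, where 0.0226% of all genes were called higher. TAGLN had 2.56, 2.30 and 1.93 in Aldefluor+ cells, against 1.66, 1.46 and 1.64 in Aldefluor- cells, and these arrays did not overlap (0.68, adjusted p = 0.477). CALD1 differed by 0.45, ACTA2 by 0.41, MYLK by 0.34, TPM1 by 0.31, PDLIM5 by 0.17, CNN1 by 0.16 and TPM2 by 0.10. These 8 were all above 0 on average, against 49% of all genes, and 4 of them did not overlap between the fractions, as 7.95% of all genes did not in that direction. TAGLN, MYLK and CALD1 had an unadjusted p under 0.05, as had 1769 of all genes.

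With DMSO in T47D, TAGLN showed the largest fraction difference of the 9 genes, with 2.62, 2.68 and 2.88 in Aldefluor+ cells, against 2.18, 1.81 and 2.36 in Aldefluor- cells. The groups were apart by 0.61 (adjusted p = 0.44). MYL9 had 6.09, 6.50 and 6.44 in Aldefluor+ cells, against 5.91, 5.79 and 6.11 in Aldefluor- cells. These overlapped, and the difference of 0.40 (95% interval 0.04 to 0.77) had an adjusted p of 0.494. No gene of the 9 passed in limma, where 0.0905% of all genes were called higher. Only TAGLN and MYL9 of the 9 had an unadjusted p under 0.05, as had 1985 of all genes. The remaining differences ran from -0.15 for CNN1 to 0.36 for ACTA2. In 4 of the 9 genes the Aldefluor+ arrays were all the higher ones, as in 9.37% of all genes.

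With ID8 the fractions of SUM159 lay close together. MYL9 differed by -0.03, with a 95% interval of -0.40 to 0.33 (limma adjusted p = 0.988). The other 8 genes ran from -0.30 for ACTA2 to 0.20 for TAGLN, and none of the 9 passed in limma (0.0769% of all genes called higher) or had an unadjusted p under 0.05, where 1662 of all genes had one. TPM2 and CNN1, 2 of the 9, had all Aldefluor+ arrays above the Aldefluor- arrays, as had 7.95% of all genes.

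In T47D with ID8, Aldefluor+ cells were above Aldefluor- cells without overlap in 5 of the 9 genes, as in 9.49% of all genes. TPM1 had 6.19, 5.86 and 6.01 in Aldefluor+ cells, against 5.24, 5.45 and 5.44 in Aldefluor- cells, without overlap (0.64, adjusted p = 0.142). That p was 0.0241 in the fit without the experiment block, with the limit given above for it. ACTA2 differed by 0.64 (adjusted p = 0.351), CALD1 by 0.52 (0.326) and MYL9 by 0.51 (0.354). None of the 9 passed in limma, where 0.222% of all genes were called higher. An unadjusted p under 0.05 was seen for 5 of them (MYL9, ACTA2, TPM1, MYLK, CALD1) and for 1982 of all genes.

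**Figure D3:**
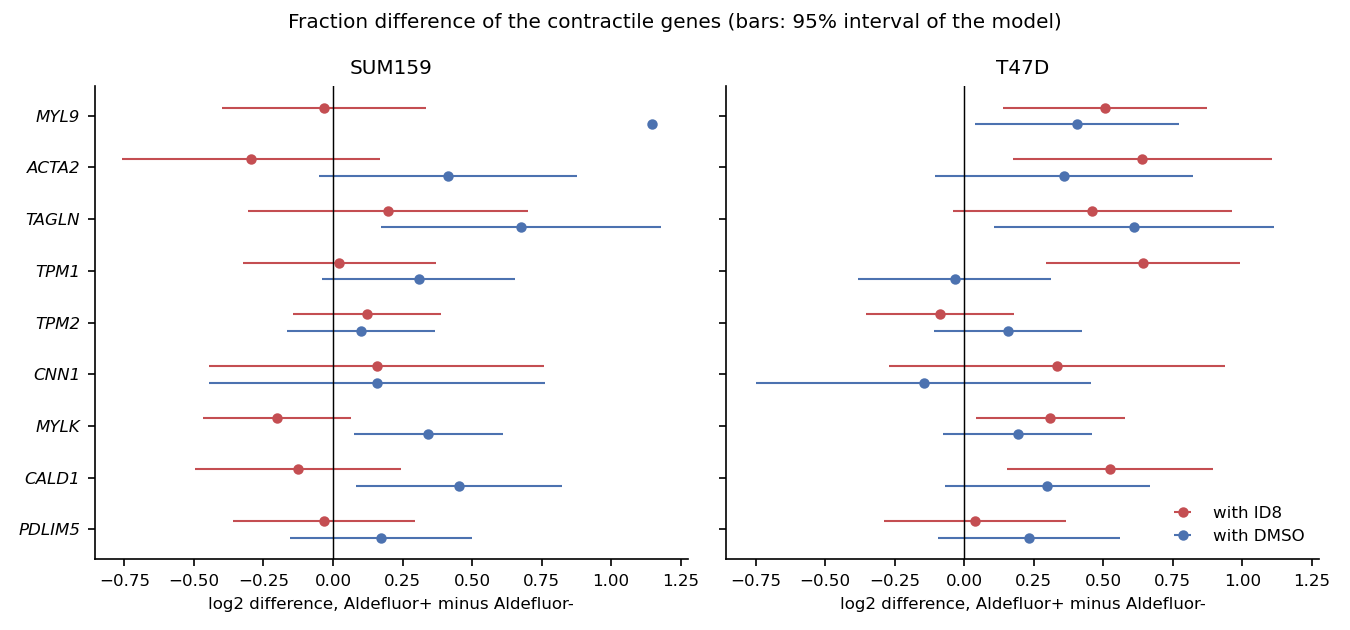
Log2 difference of Aldefluor+ minus Aldefluor- cells (horizontal axis) for the 9 genes in each line, with ID8 above DMSO, and 95% intervals of the model (none for MYL9 in SUM159 with DMSO, a description). In SUM159 the MYL9 point is at 1.15 with DMSO and at -0.03 with ID8, and in T47D most points lie right of 0 with either treatment.

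The response to ID8 was compared between fractions and lines by the difference of the differences. In SUM159 the response of Aldefluor+ cells minus that of Aldefluor- cells was -1.18 for MYL9 (a description), -0.71 for ACTA2 (adjusted p = 0.678), -0.58 for CALD1 (0.668) and -0.54 for MYLK (0.569). None of the other 8 genes passed in limma, in which 1 gene of all passed in either direction (0.00452%) and 1570 had an unadjusted p under 0.05. The ID8 effect and the fraction difference with DMSO share the SUM159 DMSO arrays. In T47D the same quantity was 0.68 for TPM1 (95% interval 0.19 to 1.17, adjusted p = 0.696), and no gene of all passed (0%), with 1306 at an unadjusted p under 0.05.

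Between the lines, the response in SUM159 minus that in T47D was 1.00 for TAGLN (95% interval 0.29 to 1.71, adjusted p = 0.24) and 0.70 for PDLIM5 (0.23 to 1.16, adjusted p = 0.203) in Aldefluor+ cells. In Aldefluor- cells it was 1.33 for TAGLN (adjusted p = 0.284), 0.70 for PDLIM5 (0.467), 0.63 for TPM1 (0.593) and 0.50 for MYLK (0.575). For MYL9 it was 0.62 in Aldefluor+ and 1.90 in Aldefluor- cells, as a description. None of the other 8 genes passed in limma in either fraction, where 0.371% of all genes were called in either direction in Aldefluor+ and 0.0678% in Aldefluor- cells. So the rise of TAGLN and PDLIM5 in SUM159 Aldefluor- cells is not shown to differ from their values in T47D. An unadjusted p under 0.05 was found for 2508 of all genes in Aldefluor+ and 1489 in Aldefluor- cells.

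Close relatives of these genes gave no call. Of 17 measured paralogs, none passed in any of the 8 comparisons of groups, and their median ID8 difference was 0.07 in SUM159 Aldefluor+, 0.09 in SUM159 Aldefluor-, 0.12 in T47D Aldefluor+ and 0.06 in T47D Aldefluor- cells. MYL12A and MYL12B encode the other regulatory light chains of non-muscle myosin. MYL12A differed by 0.15, 0.21, 0.09 and 0.06 and MYL12B by 0.21, -0.05, 0.22 and -0.28 with ID8 in the same order of populations. In SUM159 Aldefluor- cells the paralogs ran from -0.40 for PDLIM4 to 0.47 for PDLIM7, which encode other PDZ-LIM proteins. In T47D Aldefluor+ cells they ran from -0.42 for PDLIM3 to 0.39 for TAGLN2. No test compared the 9 genes with their paralogs.

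The rest of the contractile machinery gave no called gene either. Of 13 myosin II heavy chains and stress fibre proteins, the median ID8 difference was 0.17 in SUM159 Aldefluor- cells, from -0.06 for ZYX, a focal adhesion protein, to 0.49 for MYH14, a non-muscle myosin heavy chain. In T47D Aldefluor+ cells the median was 0.20, from -0.40 for VASP to 0.36 for FHL2. Of 12 genes that control light chain phosphorylation, the median was -0.01 in SUM159 Aldefluor- cells, from -0.25 for ROCK2, a kinase that acts on this pathway, to 0.51 for PPP1R14A, an inhibitor of myosin phosphatase. In T47D Aldefluor+ cells their median was 0.10, from -0.38 for PRKG1 to 0.19 for PPP1R12B. SRF itself differed by 0.31 in SUM159 Aldefluor- and by 0.00 in T47D Aldefluor+ cells, the highest of the 4 genes of SRF and its coactivators, whose lowest were MYOCD at -0.08 and MRTFA at -0.46. Differences of message say nothing of the phosphorylation of the light chain or the activity of SRF.

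**Figure D4:**
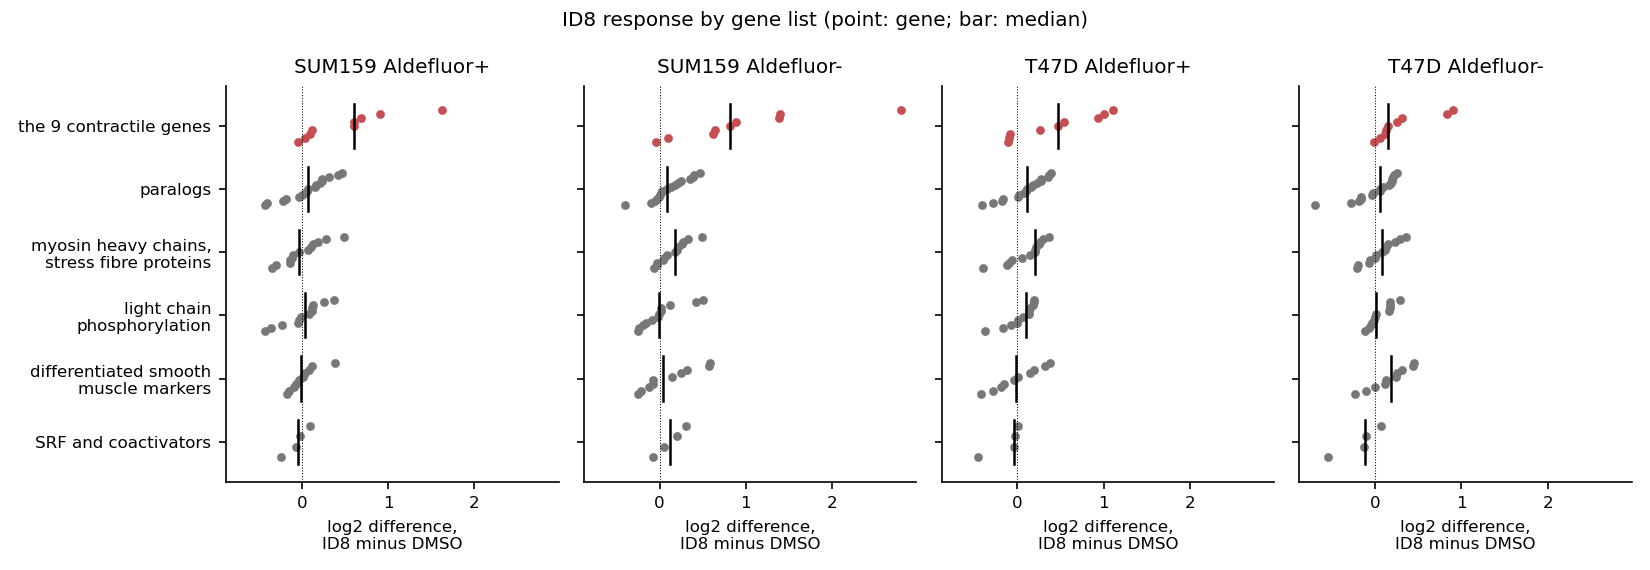
Log2 difference of ID8 minus DMSO (horizontal axis) for each measured gene of 6 lists in the 4 populations, points being genes and bars medians. In SUM159 Aldefluor- cells the median of the 9 contractile genes is 0.81, MYL9 included as a description, and 0.73 for the 8 genes without it. It is 0.09 for the paralogs and 0.04 for the differentiated smooth muscle markers.

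Of 10 markers of differentiated smooth muscle, 6 had a mean under 2 and none passed in any of the 8 comparisons. CSRP1, an actin-associated LIM protein, had the highest group means of the list, at 4.33 to 5.10. TGFB1I1, a focal adhesion protein, averaged 3.27 ± 0.22 with ID8 in SUM159 Aldefluor- cells, against 2.70 ± 0.26 with DMSO (SD, n = 3 each), and was named here after its values were seen. MYOCD, the smooth muscle coactivator of SRF, had group means of 0.85 to 1.01, and MYH11, the smooth muscle myosin heavy chain, of 1.66 to 2.06. In SUM159 Aldefluor- cells the marker list ran from -0.25 for MYH11 to 0.58 for ACTG2, whose sequence is nearly that of ACTA2. In T47D Aldefluor+ cells it ran from -0.43 for SYNPO2 to 0.38 for CSRP1. The mean level of the list was 2.04 to 2.12 over the ID8 arrays of SUM159 Aldefluor- cells and 1.92 to 2.01 over the DMSO arrays. It was 1.98 to 2.02 and 1.97 to 2.04 in T47D Aldefluor+ cells with ID8 and with DMSO.

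Markers of other cells were also examined. The 7 pericyte, 6 fibroblast and 6 endothelial or blood markers gave no call in the 8 comparisons. In SUM159 Aldefluor- cells their mean levels were 1.86 to 2.05, 1.52 to 1.71 and 1.24 to 1.38 with ID8, against 1.85 to 2.14, 1.58 to 1.70 and 1.32 to 1.53 with DMSO. Of 6 measured myoepithelial markers, only MME, a surface peptidase also called CD10, passed. It rose to 5.30 ± 0.23 with ID8 in SUM159 Aldefluor- cells, against 3.97 ± 0.17 with DMSO (SD, n = 3 each; log2 difference 1.32, adjusted p = 0.0259). The myoepithelial list there ran down to -0.52 for ITGA6, with a median of -0.05. Its mean level was 3.08 to 3.22 with ID8, against 2.86 to 3.09 with DMSO, and its part in the contractile result was not tested.

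The 9 genes also varied together to different degrees within a line. Over the 12 arrays of SUM159, the Pearson r with MYL9 was 0.94 for PDLIM5, 0.926 for TPM1, 0.922 for ACTA2, 0.922 for TAGLN, 0.861 for MYLK, 0.783 for CALD1, 0.564 for TPM2 and -0.115 for CNN1. Over the 12 arrays of T47D it was 0.868 for ACTA2, 0.846 for TPM1, 0.793 for MYLK and 0.777 for CALD1, but 0.469 for CNN1, 0.412 for TAGLN, 0.167 for PDLIM5 and 0.157 for TPM2. These are descriptions over 4 groups of 3 arrays, so a gene that differs between the groups as MYL9 does has a high r.

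Among 11332 other genes with a mean of at least 2, the 5 with the highest r to MYL9 in SUM159 were TMEM97 (0.972), CXCL12 (0.968), TLR2 (0.968), PTGER4 (0.964) and EDN1 (0.959), and PDLIM5 ranked 8. CXCL12 is a chemokine, TLR2 a receptor for bacterial lipoproteins, PTGER4 a prostaglandin E2 receptor and EDN1 the vasoconstrictor endothelin. With ID8 in SUM159 Aldefluor- cells CXCL12 differed by 1.97, PTGER4 by 1.96, TLR2 by 1.37, EDN1 by 0.91 and TMEM97 by 0.55. The T47D Aldefluor+ difference was 0.64 for EDN1, with all ID8 arrays above the DMSO arrays, 0.12 for TMEM97, 0.07 for PTGER4, 0.06 for TLR2 and -0.76 for CXCL12. In T47D the 5 highest were OAT (0.978), ZBED5 (0.964), TRAF5 (0.963), PDHB (0.954) and PGM2 (0.95), with ID8 differences of 0.30 to 0.54 in T47D Aldefluor+ cells and of -0.11 to 0.21 in SUM159 Aldefluor- cells. No gene was in both lists of 5, but lists this short out of 11332 genes would rarely share one by chance. The genes were picked for following MYL9 over the same groups, so their ID8 differences in that line partly follow from the choice. Likeness was not tested between the lines.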

How the data were processed

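Per the labels and the design text, total RNA of sorted cells was hybridised to an Affymetrix Human Gene ST plate. The deposited values are log2 signals that the authors normalized with RMA and adjusted for experiment and processing batch with ComBat. Not given in the sources used here are versions, the batches and any protected covariates, and such an adjustment can compress differences. The files held no scanner values, so background correction was not varied.

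Of 53617 probe sets, 23558 had 1 symbol (22271 updated by gene number to the RefSeq table), 2155 several and 27904 none. Of several probe sets of a gene the one with the highest mean over 24 arrays was kept, which left 22109 genes. The main test was limma 3.58.1 (lmFit, eBayes; R 4.3.3) on all 24 arrays, with 8 groups and the experiment as a block within line (12 residual degrees of freedom). P-values were adjusted by Benjamini-Hochberg over all genes of a comparison. There were 8 comparisons of groups and 4 differences of differences, which share arrays, and an error given with SE comes from this model. The fit was also run on simulated data with independent noise and no experiment effects. That run does not cover values whose experiment means had been removed.

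Replicates are arrays of separate experiments, and the labels say that a number marks one experiment, which pairs the arrays. Deviations from group means correlated at -0.409 to -0.266 over the 36 pairs of the same experiment and at 0.097 to 0.244 over other pairs of a line, as when experiment means have been removed. They are no separate evidence of pairing. The members and gene lists were chosen with earlier results of these data known. By rule, every member was named, and of other lists each called gene and the highest and lowest difference. Some further genes of the lists are not reported here. Sequences are from RefSeq (GRCh38.p14).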

Additional observations from a re-analysis of the deposited data

Results flagged for a closer look

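A pair of genes had fraction differences of opposite sign in the lines with ID8, in every experiment. ACTA2, Aldefluor+ minus Aldefluor-, was -0.43 to -0.14 in the 3 SUM159 experiments and 0.50 to 0.91 in the 3 T47D experiments, a difference between the lines of -0.936. CALD1 was -0.15 to -0.08 in SUM159 and 0.21 to 1.01 in T47D, a difference of -0.65. Neither difference was tested, and groups of 3 arrays are too small for a check of single outlying arrays.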

How the results depend on the processing

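Differences of the members kept their direction under every alternative except where 1 experiment was left out, and there 18 small uncalled differences changed sign. A further 4 differences of MYL9 without a test moved there by at least 1 SD between replicates. Only leaving out 1 experiment or the array of experiment 4, or quantile normalization applied again, could change a direction. The other alternatives gave the same differences, because groups are of equal size and each member has 1 probe set. Counts below are members called, of 9, or of 8 without MYL9 where the SUM159 DMSO arrays are used. In SUM159 Aldefluor- cells with ID8 against DMSO, 5 members were called, 2 when all probe sets were tested, 0 with only the arrays of the line, 0 in the study's univariate pair without a replicate block, and 0 to 2 without 1 experiment. In T47D Aldefluor+ cells 3 were called, 1 with all probe sets, with only the arrays of the line or in the univariate pair, and 0 without any 1 experiment (0 to 0). In SUM159 Aldefluor+ cells the count was 0, and 3 with no replicate block. In T47D Aldefluor- cells it was 0, and 1 with the trended, robust variance or no replicate block. With no replicate block it was 1 when T47D fractions were compared with ID8, against 0 with it, and the block changed the count in no other comparison. The array of experiment 4 that stood apart, left out as an alternative chosen after seeing the data, changed none of the counts. The smaller counts listed here came with fewer arrays or more features tested. The call of MYLK in SUM159 Aldefluor- cells was also lost with the trended, robust variance, on the same arrays and genes. The cause of a changed count was not tested. Among single members, MYLK in SUM159 Aldefluor- cells had an adjusted p of 0.137 with the trended, robust variance, 0.0952 with all probe sets and 0.106 in the univariate pair.

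Over all 22109 genes, calls with no replicate block numbered 401 in SUM159 Aldefluor+, 229 in SUM159 Aldefluor-, 531 in T47D Aldefluor+ and 38 in T47D Aldefluor- cells with ID8 against DMSO, against 54, 62, 83 and 4 with it. For the fractions they numbered 88 and 244 with DMSO and 210 and 327 with ID8 in SUM159 and T47D, against 5, 34, 45 and 82. The authors had already removed the experiment means, so that fit takes more residual degrees of freedom than the values hold. Without 1 experiment the 4 ID8 comparisons gave 3 to 14, 8 to 21, 1 to 4 and 0 to 2 calls. Only genes with a mean of at least 2 gave 117, 93, 130 and 5, and trended, robust variance 139, 83, 161 and 9. All probe sets gave 35, 52, 55 and 0, and only the arrays of the line 17, 22, 40 and 2. The other comparisons moved likewise, for example to 7 (SUM159) and 70 (T47D) between fractions with DMSO over genes with a mean of at least 2.

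Sign changes without 1 experiment were confined to these ranges of the log2 difference. With ID8 against DMSO, CNN1 ran from -0.33 to 0.24 in SUM159 Aldefluor+, from -0.30 to 0.21 in SUM159 Aldefluor- and from -0.49 to 0.38 in T47D Aldefluor- cells (0.08 without experiment 6), and CALD1 from -0.0686 to 0.10 in SUM159 Aldefluor+ cells. In T47D, TAGLN ran from -0.26 to 0.23 in Aldefluor+ and from -0.14 to 0.20 in Aldefluor- cells, PDLIM5 from -0.18 to 0.0116 and from -0.0144 to 0.28, and TPM2 from -0.20 to 0.00436 in Aldefluor+ cells. Between fractions, CNN1 ran from -0.35 to 0.59 in SUM159 and from -0.29 to 0.0700 in T47D with DMSO, and TPM1 from -0.0937 to 0.00643 in T47D with DMSO. With ID8, SUM159 fractions ran from -0.11 to 0.0233 for MYL9, from -0.12 to 0.0699 for PDLIM5 and from -0.0427 to 0.10 for TPM1, and T47D fractions from -0.23 to 0.20 for PDLIM5 and from -0.14 to 0.0225 for TPM2. Low signal limits ACTA2, TAGLN, CNN1 and MYLK, whose means lie near 2.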
